A study of Mus musculus with 25 samples.

Results

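The Piwi pathway genes described here were 10 genes of the germline small RNA machinery, Piwil1, Piwil2, Piwil4, Tdrd1, Tdrd6, Tdrd9, Tdrkh, Mov10l1, Ddx4 and Mael, taken by gene symbol from a table of 47575 genes, in which all 10 were found and all 10 passed the filter of a mean of at least 5 normalised counts. Piwi proteins are Argonaute proteins of the germline that carry short guide RNAs, the piRNAs, and with them find and silence transposon transcripts and other targets. Tudor domain proteins hold the Piwi proteins in granules beside the mitochondria and in the chromatoid body of spermatids, where helicases and nucleases make the guides from long precursor transcripts. In the adult testis most piRNAs are made in pachytene spermatocytes and round spermatids, and mature sperm, which hardly transcribe, hold RNA made at earlier stages.

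Total RNA was sequenced from sperm of male C57BL/6J mice that were 8 weeks old when their diet began and ate it for at least 8 weeks. The paper describes the males as mated and then kept on their diet until sperm was taken, at an age it does not give for these samples. LPD males ate a diet of low protein, with 9% casein and 24% sugar. WD males ate a Western diet with 19% casein, 34% sugar, 20% milk fat and 0.15% cholesterol. The MD-LPD and MD-WD males ate these same diets with methyl donors added, namely betaine at 15 g/kg, methionine at 7.5 g/kg, choline chloride at 5 g/kg, folic acid at 15 mg/kg and vitamin B12 at 1.5 mg/kg. CD males ate the control diet, with 18% casein, 21% sugar and neither milk fat nor cholesterol. The CD and LPD diets also held D,L-methionine, which the WD diet did not. The WD diet held less corn oil and starch and more mineral and vitamin mix than those of CD and LPD. Each of the 5 diets had 5 males with 1 library each. The sperm had swum out of sliced caudal epididymides, the store of mature sperm, so the libraries can hold other cells of that tissue. Whether males shared a litter or a cage is not stated in the sources used here, and the tests measure the spread between these males.

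Libraries held 32455480 to 54108158 reads, with a median of 38676778, and reads in 26859 to 36615 genes. Every value below is a normalised count, a count of reads divided by the size factor of its library, and a log2 difference is taken on the normalised count plus 1. The label of sperm was checked on fixed marker lists. All 14 markers of spermatids and sperm had reads in every library, and their sum ran from 86758 normalised counts in LPD male 12 to 1434700 in MD-WD male 12. The 8 epididymal markers summed to 98840 to 535057 normalised counts, the 6 fibroblast markers to 17864 to 220194 and the 8 leukocyte markers to 10270 to 62494, so RNA of other cells was present throughout. The fibroblast sum averaged 78776 in LPD males (SD 84077), 32999 in MD-LPD, 34511 in WD, 29146 in MD-WD and 24456 in CD males. In such bulk samples fewer cells of a type and less RNA per cell cannot be told apart. For 3 libraries, LPD male 15, MD-LPD male 15 and CD male 15, a second label field names another diet than the title by which they were grouped. CD male 10, LPD male 13 and MD-LPD male 9 had reads in fewer than 30000 genes each.

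The promoter stretches of 5 members are shown because the 10 genes fell into a set of 8 that varied together and a pair, Piwil4 and Tdrkh, that did not. Piwil1, Tdrd1 and Mael stand for the set. RefSeq windows of 250 bases before to 50 after a gene start, made on GRCm38.p6 and found by exact match in GRCm39, were at hand for 8 of the 10 members. Each stretch holds 150 bases, 5′ to 3′ on the strand of the gene, and ends at the RefSeq start for Piwil1 and Tdrd1 and at the GENCODE start, 18, 68 and 98 bases upstream of it, for Mael, Piwil4 and Tdrkh. Capitals mark CAACTG, a core bound by Myb family factors, and CCAAT, each searched on both strands, so that CAGTTG and ATTGG are the reverse forms. The letters of the motifs do not overlap each other, and they were chosen after the sequences were read. The Piwil1 stretch lies at chr5:128813160-128813309, plus strand, that of Tdrd1 at chr19:56814491-56814640, plus strand, and that of Mael at chr1:166066332-166066481, minus strand. The Piwil4 stretch lies at chr9:14652037-14652186, minus strand, and that of Tdrkh at chr3:94320303-94320452, plus strand.
Piwil1: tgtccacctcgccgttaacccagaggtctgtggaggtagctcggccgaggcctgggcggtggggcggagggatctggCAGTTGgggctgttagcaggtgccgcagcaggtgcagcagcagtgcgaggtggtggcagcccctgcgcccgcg
Tdrd1: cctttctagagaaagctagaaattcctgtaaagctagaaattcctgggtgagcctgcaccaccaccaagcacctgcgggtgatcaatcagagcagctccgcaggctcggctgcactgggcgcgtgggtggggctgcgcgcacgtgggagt
Mael: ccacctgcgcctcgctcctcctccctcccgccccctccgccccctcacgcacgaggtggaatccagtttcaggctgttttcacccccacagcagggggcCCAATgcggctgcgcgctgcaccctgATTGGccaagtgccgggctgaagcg
Piwil4: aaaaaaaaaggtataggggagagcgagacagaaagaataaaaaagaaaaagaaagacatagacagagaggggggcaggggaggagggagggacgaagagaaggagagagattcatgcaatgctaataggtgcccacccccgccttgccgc
Tdrkh: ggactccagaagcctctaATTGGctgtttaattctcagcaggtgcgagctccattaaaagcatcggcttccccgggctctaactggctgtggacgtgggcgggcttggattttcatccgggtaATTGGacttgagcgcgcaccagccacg
In the 250 bases before the RefSeq start, CAACTG was present in 1 of the 8 windows, that of Piwil1 at position -73. It was present in 11.14% of 32817 RefSeq windows of the same length. Only these exact letters were searched, so other forms of the Myb core, such as TAACTG in the Tdrkh stretch, were neither counted nor marked. CCAAT was present in 6 of the 8, all but Piwil4 and Tdrd1, and in 33.83% of all windows. The motifs were chosen after the sequences were read, so these shares do not test an enrichment. The RefSeq start of Ddx4 lies 165 bases downstream of its GENCODE start, and its CCAAT matches lie between these starts. Tdrkh held 5 matches of CCAAT and Mael 3, some of them outside the stretches shown. Those of Tdrkh outside its stretch lie after its GENCODE start, within the 98 bases before its RefSeq start. The RefSeq start used for Piwil1 lies 33722 bases downstream of the start in the GENCODE annotation. The CAACTG and CCAAT matches of Piwil1 thus lie after its GENCODE start.

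The levels of the members spanned a wide range in CD males. Per kilobase of exon, Mael, an HMG-box protein of the germ granules, was the highest, at 501 ± 162 normalised counts per kb (SD, n = 5). Tdrd6 with 151 ± 33.7, Ddx4 with 142 ± 31.1 and Mov10l1 with 113 ± 57.8 normalised counts per kb followed. Tdrd1 with 89.8, Tdrd9 with 74.0 and Piwil1 with 72.4 came next, ahead of Tdrkh. Piwil2 had 37.7 ± 2.48 and Piwil4 20.7 ± 12.2 normalised counts per kb. Of the neighbours in this order, the ranges over the 5 CD males did not overlap only for Mael and Tdrd6, and for Piwil2 and Piwil4. Piwil4 was thus the lowest member, with as few as 10 reads in a library, and its values carry the most counting error.

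Among the Piwi proteins themselves, Piwil1 (chr5:128779588-128832538, plus strand, GRCm39) encodes Miwi, the Piwi protein of pachytene spermatocytes and round spermatids. Piwil1 had 1241, 164, 84.2, 373 and 323 normalised counts in LPD males 10, 11, 12, 13 and 15, and 528, 863, 155, 389.7 and 133 in MD-LPD males 9, 10, 11, 14 and 15. It had 827, 1218, 469, 1058 and 201 in WD males 10, 11, 12, 13 and 14, and 873, 389, 1363, 282 and 343 in MD-WD males 9, 10, 12, 14 and 16. CD males 10, 11, 12, 14 and 15 had 402, 426, 271, 223 and 356. The highest values stood in LPD male 10, MD-LPD male 10, WD males 10, 11 and 13, and MD-WD males 9 and 12, and every diet group overlapped CD. The means were 755 ± 418 in WD males and 336 ± 86.2 in CD males (SD, n = 5 each), a log2 difference of 0.95 (SE 0.63) at an adjusted p of 0.415 in limma. In MD-WD males the mean was 650.0 ± 462, with a log2 difference from CD of 0.72 (SE 0.63, adjusted p 0.591). Neither passed the threshold of 0.05.

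Piwil2 (chr14:70609365-70666832, minus strand) encodes Mili, which works in fetal and postnatal germ cells and cleaves transposon transcripts. It had 682, 769, 352, 502 and 136 normalised counts in WD males 10 to 14, 498, 221, 834, 216 and 173 in MD-WD males 9, 10, 12, 14 and 16, and 204, 228, 211, 221 and 242 in CD males 10, 11, 12, 14 and 15. The CD males lay close together, between 204 and 242, while the other groups spread on both sides of them, with 81.6 to 655 in LPD and 114 to 533 in MD-LPD males. The log2 difference was 0.92 (SE 0.54) for WD and 0.54 (SE 0.54) for MD-WD against CD, at adjusted p of 0.373 and 0.63 in limma. Without MD-WD male 12 the MD-WD value was 0.20.

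Piwil4 (chr9:14607526-14652036, minus strand) encodes Miwi2, the nuclear Piwi protein of fetal germ cells that directs DNA methylation to transposons. It had 86.8, 93.9, 105, 20.5 and 53.2 normalised counts in LPD males 10, 11, 12, 13 and 15, and 48.3, 59.7, 98.9, 126 and 88.9 in MD-LPD males 9, 10, 11, 14 and 15. It had 47.1, 71.1, 118, 39.2 and 109 in WD males 10 to 14, and 36.0, 97.9, 31.8, 34.4 and 12 in MD-WD males 9, 10, 12, 14 and 16. CD males 10, 11, 12, 14 and 15 had 11.6, 96.4, 178, 163 and 108. Within MD-WD only male 10 was above 36.0, and within CD male 10 stood far below the other 4, so the groups overlapped. The log2 difference for MD-WD against CD was -1.23 (SE 0.62, unadjusted p 0.0582, adjusted p 0.484 in limma). It was -1.01 (SE 0.62, adjusted p 0.956) for MD-WD against WD. Without CD male 10 the MD-WD against CD value was -1.91, and without MD-WD male 16 it was -0.87. The epididymal markers were also low in those libraries and in that group, with a mean sum of 182657 normalised counts in MD-WD males and 323509 in CD males, 98840 in MD-WD male 16 and 124154 in CD male 10. LPD male 13, with the lowest Piwil4 value of its group, had the highest epididymal sum of all libraries, 535057. Spermatogonial, smooth muscle, Sertoli cell and Leydig cell marker sums also had lower means in MD-WD than in CD males. Those of spermatocytes, spermatids and sperm, leukocytes, fibroblasts and endothelium had higher means. The part of the epididymal or other markers in the Piwil4 values was not tested. Against CD, the log2 difference of Piwil4 was -0.39 in LPD, -0.041 in MD-LPD and -0.22 in WD males, each with an SE of 0.62, and all 3 changed sign under at least 1 alternative or omission of a library.

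**Figure D1:**
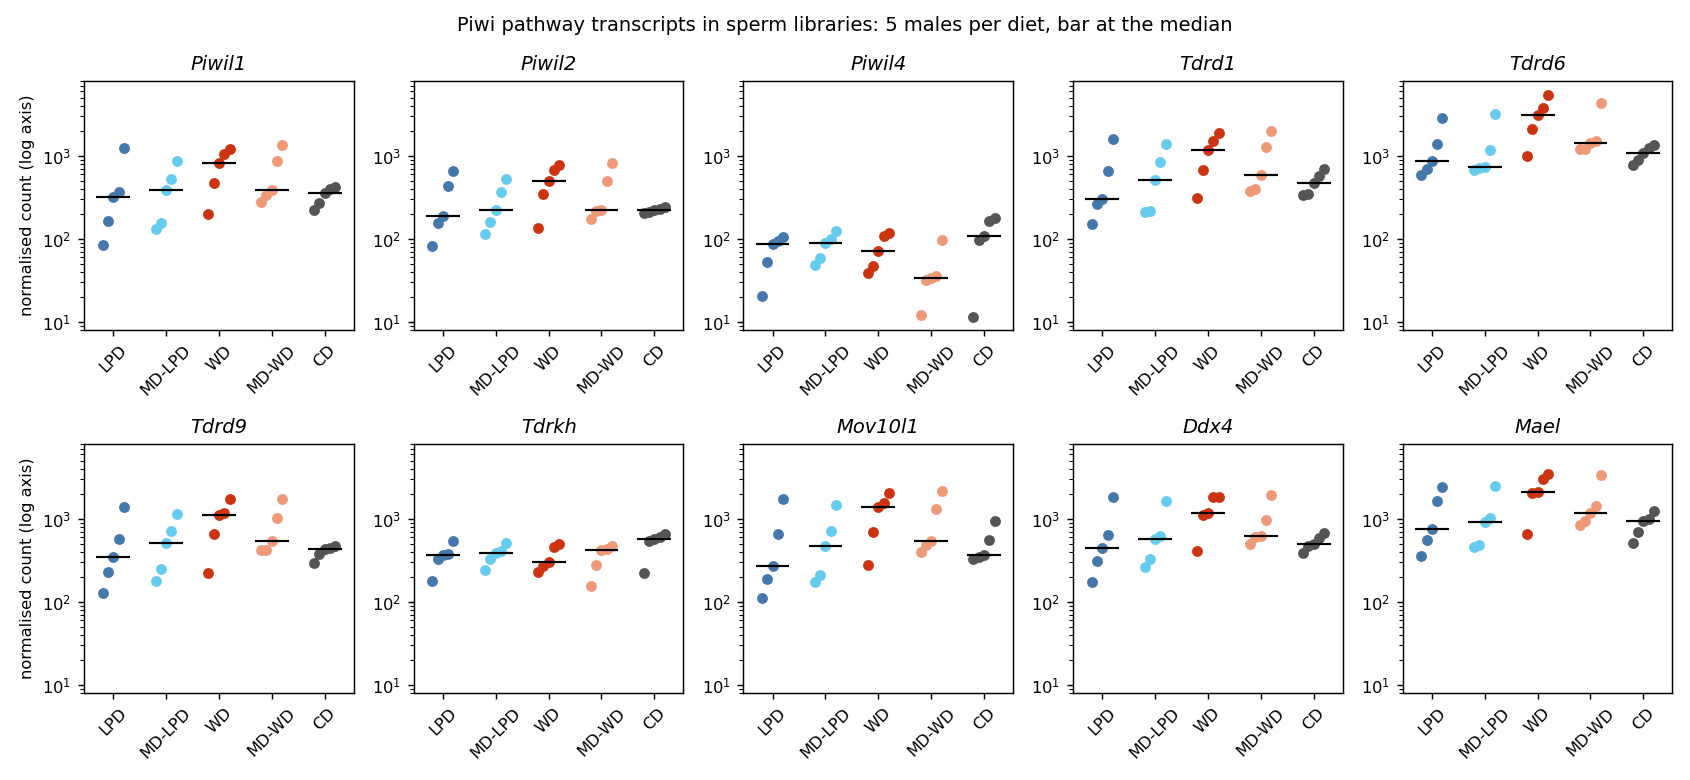
Normalised counts of the 10 Piwi pathway genes (log axis) for each of 5 males per diet, with LPD, MD-LPD, WD, MD-WD and CD from left to right and a bar at the median. In 8 genes each supplemented or altered diet spreads more widely than CD, while Piwil4 and Tdrkh have another order of libraries, with single low males such as the 11.6 of Piwil4 in CD male 10.

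Of the helicases and their partners, Mov10l1 (chr15:88867085-88939371, plus strand) is the RNA helicase that binds piRNA precursor transcripts and is needed for their processing. It had 1556, 2049, 698, 1372 and 280.5 normalised counts in WD males 10 to 14, 1297, 537, 2156, 392 and 478 in MD-WD males 9, 10, 12, 14 and 16, and 939.9, 552, 329.7, 346 and 366 in CD males 10, 11, 12, 14 and 15. This was the widest range of all members, 19.3-fold between LPD male 12, with 112, and MD-WD male 12. The log2 difference was 1.06 (SE 0.69) for WD against CD and 0.74 (SE 0.69) for MD-WD against CD, at adjusted p of 0.41 and 0.611 in limma.

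Ddx4 (chr13:112734867-112789009, minus strand) is the germ cell helicase known as Vasa, a marker of the germline. It had 1807, 311, 174, 632 and 441 normalised counts in LPD males 10, 11, 12, 13 and 15, and 624, 1640.1, 329.8, 564 and 259 in MD-LPD males 9, 10, 11, 14 and 15. It had 1163, 1819, 1119.9, 1822 and 412 in WD males 10 to 14 and 964, 627, 1931, 497 and 609 in MD-WD males 9, 10, 12, 14 and 16. CD males 10, 11, 12, 14 and 15 had 494, 679, 463, 387 and 592. Of the WD males 4 lay above every CD male, and male 14 lay in the lower part of the CD range. The WD against CD log2 difference was 1.13 (SE 0.54), with an unadjusted p of 0.0473 and an adjusted p of 0.305 in limma, and for MD-WD against CD it was 0.66 (adjusted p 0.57).

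Mael (chr1:166028770-166066331, minus strand) is required in mouse for transposon silencing in the male germline. It had 2029, 2993, 2110.2, 3430.3 and 659 normalised counts in WD males 10 to 14, 1436, 928, 3381, 840.2 and 1181 in MD-WD males 9, 10, 12, 14 and 16, and 1005, 1237, 689, 511 and 939 in CD males 10, 11, 12, 14 and 15. In LPD males 10, 11, 12, 13 and 15 it had 2383, 559.9, 354, 1627 and 743, and in MD-LPD males 9, 10, 11, 14 and 15 1022, 2445, 481, 905 and 459.7. WD males 10 to 13 were all above the highest CD male and WD male 14 was among the CD values, so the groups overlapped. The log2 difference of WD against CD was 1.23 (SE 0.53), 2.34-fold, with an unadjusted p of 0.0297 and an adjusted p of 0.275 in limma. For MD-WD against CD it was 0.69 (SE 0.53, adjusted p 0.559).

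Among the Tudor proteins, Tdrd6 (chr17:43926226-43941190, minus strand) is a large protein of the chromatoid body of spermatids and is needed for that structure. It had 2908, 700.5, 584, 1385 and 881 normalised counts in LPD males 10, 11, 12, 13 and 15, and 677, 3176, 708, 1193 and 743 in MD-LPD males 9, 10, 11, 14 and 15. It had 2136, 3839, 3160.4, 5364 and 1005 in WD males 10 to 14, and 1532, 1229, 4378, 1208 and 1415 in MD-WD males 9, 10, 12, 14 and 16. CD males 10, 11, 12, 14 and 15 had 1085, 1356, 897, 775 and 1235. Tdrd6 in WD males exceeded CD in 22 of 25 pairs of males, and only WD male 14 fell among the CD values. The means were 3101 ± 1658 in WD and 1069.7 ± 238 in CD males (SD, n = 5 each). The log2 difference of 1.36 (SE 0.48), 2.56-fold, had the lowest p of all members, 0.01 unadjusted and 0.232 adjusted over 28311 genes in limma. In MD-WD males the difference from CD was 0.70 (SE 0.48, adjusted p 0.535), and it was 0.35 without MD-WD male 12.

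Tdrd1 (chr19:56814641-56858444, plus strand), a scaffold that binds Mili in the germ granules beside mitochondria, had 1531, 1896, 673, 1179 and 313 normalised counts in WD males 10 to 14, against 579, 699.9, 339, 353 and 478 in CD males 10, 11, 12, 14 and 15. MD-WD males ran from 380.2 to 1985, LPD males from 152 to 1599 and MD-LPD males from 214 to 1379. The log2 difference was 0.99 for WD and 0.66 for MD-WD against CD, each with an SE of 0.62 (adjusted p 0.395 and 0.612, limma). Tdrd9 (chr12:111937965-112035290, plus strand), a Tudor protein with a helicase domain that acts with Miwi2 in fetal germ cells, had 1109, 1706, 662, 1158 and 223 in WD males 10 to 14, against 440.3, 434, 377, 296 and 466 in CD males 10, 11, 12, 14 and 15. Its log2 difference was 1.003 for WD and 0.81 for MD-WD against CD (SE 0.59, adjusted p 0.373 and 0.544). The lowest WD male of both genes was male 14, below every CD male, so neither gene separated the groups.

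Tdrkh (chr3:94320453-94342614, plus strand) encodes a Tudor protein of the mitochondrial surface that takes part in trimming piRNAs. It had 331, 373, 535, 176 and 369 normalised counts in LPD males 10, 11, 12, 13 and 15, and 243, 326, 413, 515 and 389.5 in MD-LPD males 9, 10, 11, 14 and 15. It had 302, 229, 452, 272 and 499 in WD males 10 to 14, and 436, 463, 415, 274 and 155 in MD-WD males 9, 10, 12, 14 and 16. CD males 10, 11, 12, 14 and 15 had 224, 543, 601, 656 and 572. CD males other than male 10 lay above every male of each other group, with CD male 10 near the low end of all libraries. The log2 differences against CD were -0.54 for WD, -0.59 for MD-WD, -0.53 for LPD and -0.41 for MD-LPD males, each with an SE of 0.34, and the lowest adjusted p was 0.401 in limma. Without CD male 10 they were -0.82 for WD, -0.87 for MD-WD, -0.81 for LPD and -0.69 for MD-LPD, with adjusted p of at least 0.164. The 4 comparisons share the same CD males, so their common sign rests on one set of 5 libraries. Tdrkh shares 2592 of its exon bases, 32.9%, with Oaz3 on the opposite strand, a spermatid gene with 18438 normalised counts in LPD male 12 and 282635 in LPD male 10, where Tdrkh had 535 and 331. The kit marked strand, but whether the counting used it is not stated in the sources used here.

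Taking the 10 genes by diet, none passed an adjusted p of 0.05 in limma in any of the 6 comparisons, and over all 28311 genes tested the share that passed was 0 percent in each of them. At an unadjusted p under 0.05, 3 members (Tdrd6, Mael and Ddx4) were above CD in WD males, against 8.17% of all genes, and 0 were below, against 8.1%. These 3 varied together over the 25 libraries (Pearson r of log2 values 0.94 to 0.97), so they are not independent results. In LPD, MD-LPD and MD-WD males against CD the count was 0 in both directions, with 4.8%, 1.79% and 5.97% of all genes above CD and 3.76%, 1.43% and 4.39% below. It was also 0 for MD-LPD against LPD, where 0.925% of all genes were above and 0.668% below, and for MD-WD against WD, where the shares were 4.76% and 0.788%. No member separated its groups without overlap in any of the 6 comparisons, while 1.29% of all genes did so above CD in WD males and 2.56% below. The shares were 1.93% and 1.89% in MD-WD males, 0.65% and 1.2% in LPD males, and 0.424% and 0.6% in MD-LPD males against CD, 0.184% and 0.0636% for MD-LPD against LPD, and 0.48% and 0.127% for MD-WD against WD. The quasi-likelihood test of edgeR and the Wald test of DESeq2 on the recovered counts also called 0 members. With edgeR 0 of the 28311 genes were called in each of the 6 comparisons. DESeq2, run without the filter on low values, called 0.259% of 47500 genes in WD, 0.112% in MD-WD, 0.0842% in LPD and 0.0358% in MD-LPD males against CD. It called 0.0316% in MD-LPD against LPD and 0.0253% in MD-WD against WD. Unadjusted, both gave 6 members above CD in WD males, against 13.9% of the 28311 genes with edgeR and 7.7% of the 47500 with DESeq2. These 2 shares are over unlike sets of genes.

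In WD against CD, 8 of the 10 members had a positive and 2 a negative log2 difference, with a median of 0.997 beside 0.025 over all genes tested, but 4 were positive and 6 negative once libraries were scaled to equal sums of the spermatid and sperm markers. In MD-WD against CD 8 were positive and 2 negative, with a median of 0.68 beside 0.11 over all genes, but 1 was positive and 9 negative on the marker scale. That scaling, chosen after the data were seen, moved the median of all genes by -0.98 in WD and -0.72 in MD-WD, and the members' medians on it were -0.025 and -0.073. Relative to the median of all genes under the same scaling, the members' median was higher by 0.97 as normalised counts and by 0.93 on the marker scale in WD, and by 0.56 and 0.53 in MD-WD males. A scaling moves all genes of a library alike, so the 2 values of each diet are close by construction. They do not test whether the members' difference goes beyond that of the marker sum. With equal totals the medians were 0.46 in WD and 0.38 in MD-WD males.

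In LPD against CD 3 members were above and 7 below, with a median of -0.12 and a range of -0.53 to 0.095, and adjusted p ran from 0.706 to 0.998. This direction did not hold: the median was 0.40 with edgeR, 0.037 with 5 above and 5 below on the marker scale, -0.53 without LPD male 10 and 0.27 without LPD male 12. In MD-LPD against CD 6 were above and 4 below, with a median of 0.038 and a range of -0.41 to 0.17. The median there was 0.36 with edgeR, -0.17 with equal totals, -0.31 without MD-LPD male 10 and 0.29 without MD-LPD male 15. Methyl donors on the low protein diet, MD-LPD against LPD, gave 8 above and 2 below, with a median of 0.17, which was 0.017 with edgeR, 0.55 without LPD male 10, -0.17 without LPD male 12 and also -0.17 without MD-LPD male 10. On the Western diet, MD-WD against WD gave 0 above and 10 below, with a median of -0.35 and no adjusted p under 0.956. There 3 were above and 7 below on the marker scale, with a median of -0.078, and likewise 3 and 7 with equal totals, with a median of -0.11. That median was -0.77 without WD male 14 and -0.15 without MD-WD male 16. The effect of methyl donors was not shown to differ between the low protein and the Western diet: the differences between the effects ranged from 0.17 to 1.36 on the log2 scale and each had an adjusted p of 1 in limma. All of these comparisons against CD share the CD libraries.

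**Figure D2:**
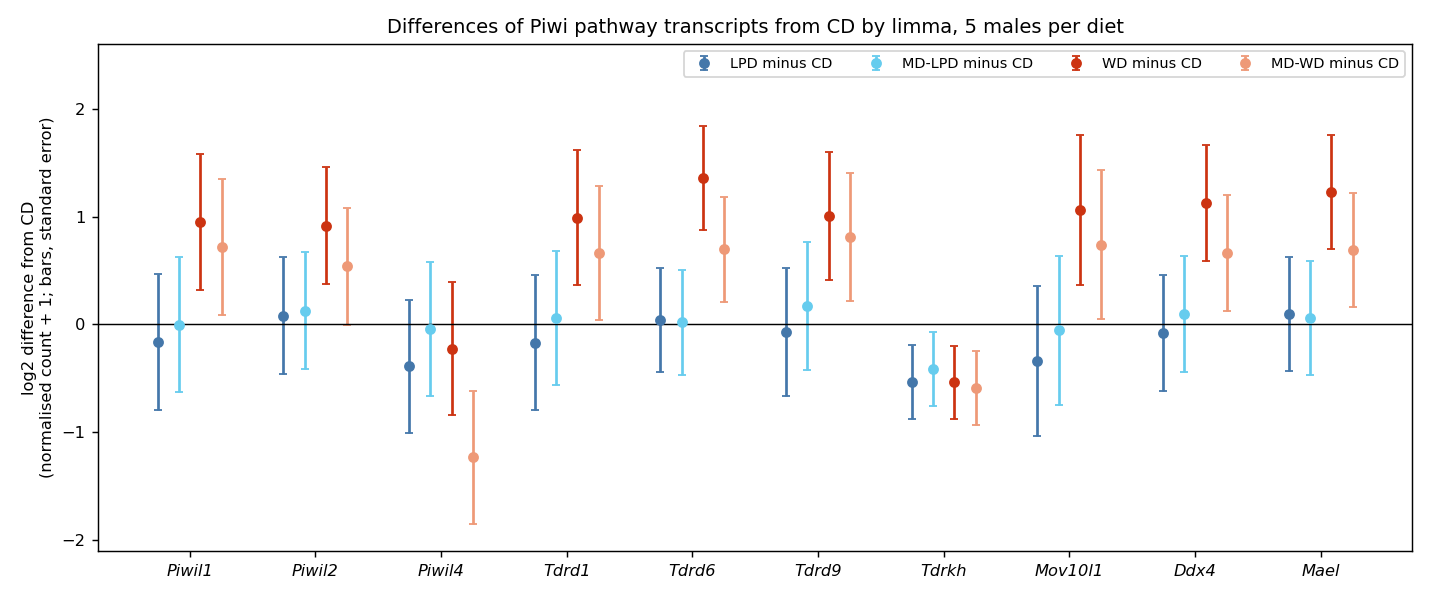
Log2 difference from CD of the 10 members in males of each of the other diets by limma, with standard errors, 5 males per diet. The 8 co-varying members lie above 0 in WD (0.92 to 1.36) and MD-WD (0.54 to 0.81), but 4 of them in WD and 7 in MD-WD lie below 0 when libraries are scaled to equal spermatid and sperm marker sums, and no difference passed an adjusted p of 0.05.

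Single males moved the WD values. Leaving out WD male 14 moved the median of the members against CD to 1.42 and the number at an unadjusted p under 0.05 to 8, against 15.8% of all genes above CD at that p. Leaving out CD male 12, CD male 14, WD male 11 or WD male 13 left 1 such member, against 7.09%, 6.44%, 3.73% and 4.99% of all genes in that order. The median was 0.73 without WD male 11, and for MD-WD against CD it was 0.35 without MD-WD male 12 and 0.85 without MD-WD male 14. Without MD-WD male 12 the MD-WD against CD differences were 0.38 for Piwil1, 0.31 for Tdrd1, 0.49 for Tdrd9, 0.37 for Mov10l1, 0.35 for Ddx4 and 0.36 for Mael, and that of Tdrkh was -0.32 without MD-WD male 16. Leaving out the 3 libraries whose label fields disagree left the WD median at 0.99 with 2 members at an unadjusted p under 0.05, against 7.78% of all genes. Grouping those libraries by the second field gave 0.67 and 0 members, against 5.23%. No member was called in any of these, where at most 1 of all genes tested was called.

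The 8 members other than Piwil4 and Tdrkh went together from library to library. All 8 were highest within their group in LPD male 10, in MD-LPD male 10 and in MD-WD male 12, and WD males 11 and 13 held the highest value of 5 and 3 of them. All 8 were lowest in LPD male 12 and in WD male 14, and 6 of them in MD-LPD male 15 and in MD-WD male 14. The ratio of highest to lowest library ran from 9.18 for Tdrd6 to 19.3 for Mov10l1. Over the 25 libraries, the Pearson correlation of log2 values between pairs of these 8 had a median of 0.94, lowest for Piwil2 with Tdrd6 (0.82) and highest for Piwil1 with Tdrd9 (0.99). Piwil4 and Tdrkh correlated with each other at 0.83, and with the other 8 at -0.41 to -0.24. These libraries share sperm and tissue input and depth, and the set of 8 was named after its values were seen, so the correlations are descriptions. In Piwil4 and Tdrkh the lowest 3 libraries were the same, CD male 10, MD-WD male 16 and LPD male 13, of which CD male 10 and LPD male 13 had reads in fewer than 30000 genes.

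The 8 members other than Piwil4 and Tdrkh moved with the amount of spermatid and sperm marker RNA in a library. The sum of the 14 spermatid and sperm markers averaged 767894 normalised counts in WD males, 652284 in MD-WD males, 431982 in LPD males, 394834 in MD-LPD males and 334632 in CD males. The 10 spermatocyte markers averaged 4075 in WD males, 2970 in MD-WD males, 2286 in LPD males, 2027 in MD-LPD males and 2132 in CD males, while the 8 spermatogonial markers averaged 1548 to 1886 in all groups. The spermatocyte marker Spata22 was at 0 in 24 libraries, and the spermatogonial markers Sohlh1 and Stra8 in 20 and 11. Divided by the spermatid and sperm sum, Piwil1 had 979 ± 136 normalised counts per 1000000 marker counts in WD males, 1002 ± 58.8 in MD-WD males, 1039 ± 265 in LPD males, 1102 ± 193 in MD-LPD males and 1025 ± 108 in CD males (SD, n = 5 each). On that scale the mean was highest in MD-LPD males and lowest in WD males. The same ratio for Mov10l1 was 1500.0 ± 176 in WD, 1448 ± 120.1 in MD-WD and 1481 ± 332 in CD males. For Tdrd6 it was 4434 ± 1738 in WD, 3285 ± 965 in MD-WD and 3331 ± 616 in CD males, with a spread that remained wide.

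**Figure D3:**
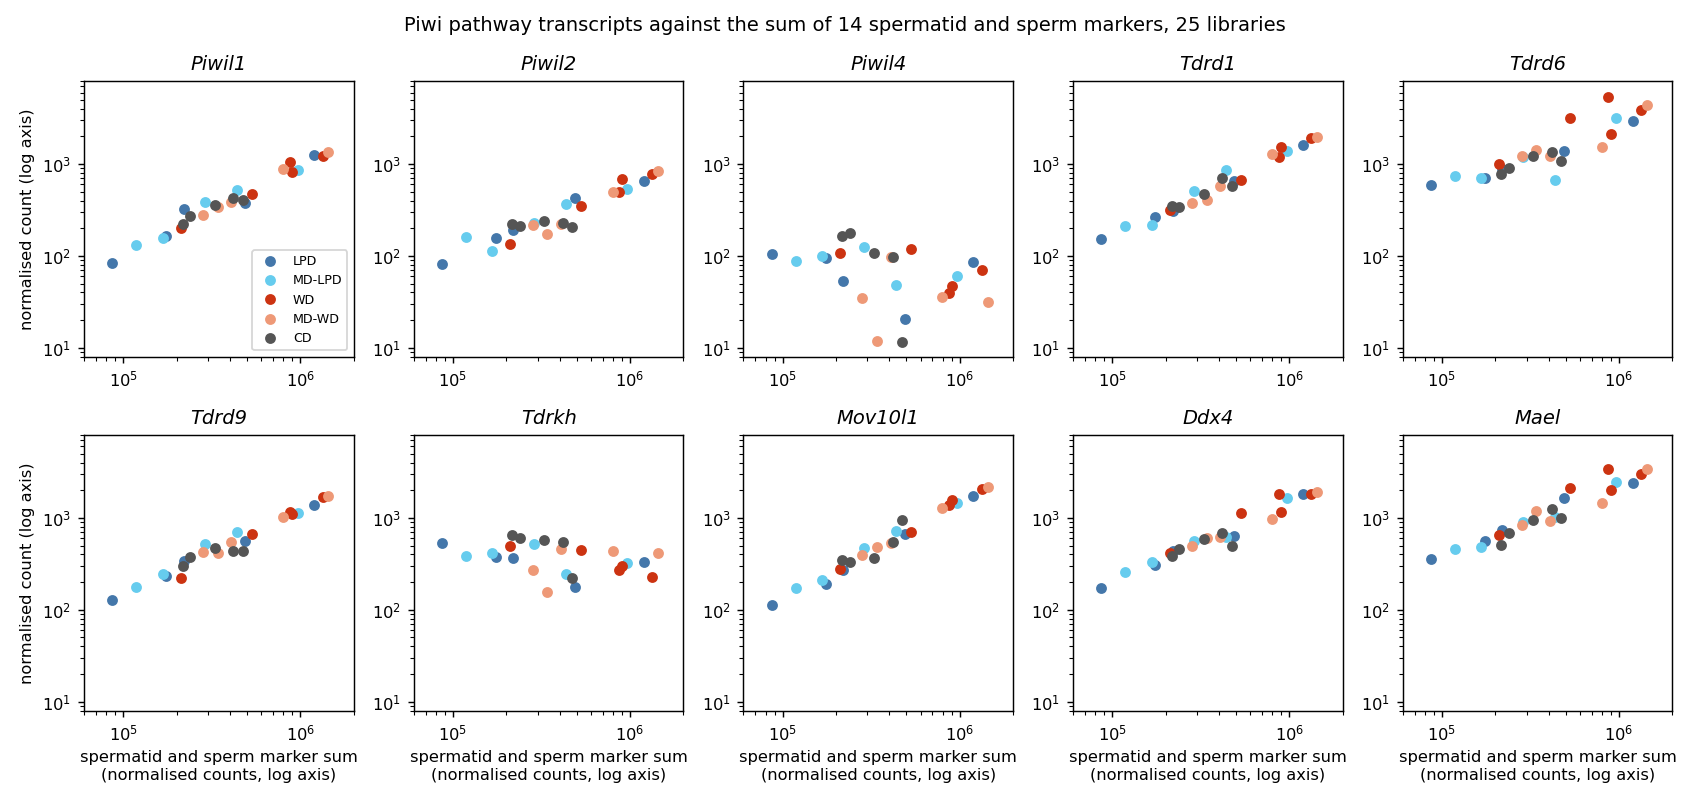
Normalised counts of the 10 members (log axis) against the sum of 14 spermatid and sperm markers (normalised counts, log axis) in each of the 25 libraries, coloured by diet. Piwil1, Piwil2, Tdrd1, Tdrd6, Tdrd9, Mov10l1, Ddx4 and Mael climb along the marker sum, from 84.2 to 1363 for Piwil1, whereas Piwil4 and Tdrkh do not.

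The SD of log2 values between males within a diet, pooled over the 5 diets, was 1.06 for Piwil1 and became 0.22 relative to the marker sum, 1.17 and 0.19 for Mov10l1, 1.05 and 0.19 for Tdrd1, and 1.001 and 0.21 for Tdrd9. It was 0.91 and 0.30 for Ddx4, 0.89 and 0.34 for Mael, and 0.91 and 0.37 for Piwil2. Tdrd6 kept 0.56 of 0.81. For Piwil4 and Tdrkh the spread grew, to 1.74 from 1.02 for Piwil4 and to 1.38 from 0.56 for Tdrkh. The WD against CD log2 difference on the marker scale was between -0.11 (Piwil2, SE 0.32) and 0.33 (Tdrd6, SE 0.40) among the 8, where Piwil1 had -0.069 and Mael 0.20. For MD-WD against CD it was between -0.21 for Piwil2 and 0.064 for Tdrd9. Tdrkh and Piwil4 had -1.56 and -1.22 in WD, and -1.34 and -1.96 in MD-WD males, against CD on that scale, with SE of 0.84 and 1.03, and none of these passed the test. The 14 markers and the members come from the same libraries, and whether the marker sum accounts for the WD values was not tested.

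**Figure D4:**
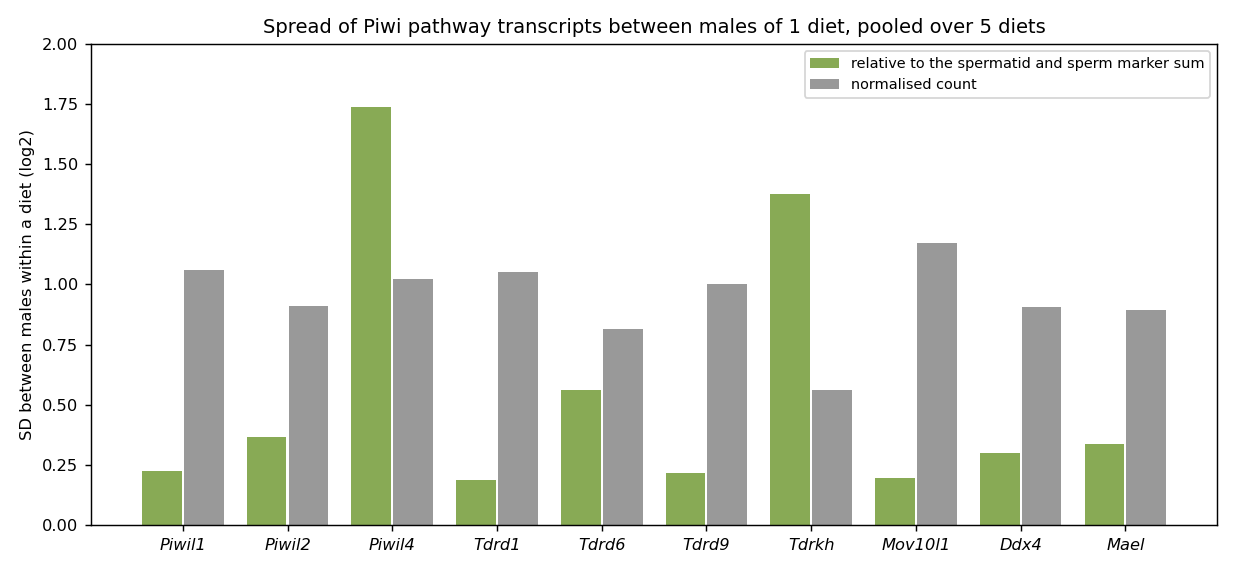
SD between males of 1 diet of the log2 values of each member, pooled over the 5 diets, relative to the spermatid and sperm marker sum (left bars) and as normalised count (right bars). The left bar is lower for 8 members, such as 0.19 beside 1.17 for Mov10l1, and higher for Piwil4 (1.74 beside 1.02) and Tdrkh (1.38 beside 0.56).

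Within a library, Piwil2 over Piwil1 averaged 0.67 ± 0.13 in WD males, 0.60 ± 0.098 in MD-WD males, 0.84 ± 0.27 in LPD males, 0.77 ± 0.26 in MD-LPD males and 0.70 ± 0.20 in CD males (SD, n = 5 each). Tdrd6 over Mov10l1 averaged 3.05 ± 1.36 in WD males, 2.31 ± 0.77 in MD-WD males, 3.18 ± 1.41 in LPD males, 2.67 ± 1.27 in MD-LPD males and 2.39 ± 0.81 in CD males, and in MD-LPD males alone it spanned 0.95 to 4.34. For both ratios the ranges of all 5 groups overlapped.

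The genes most like Piwil1 over the 25 libraries were Cfap43 (Pearson r 0.99 of log2 values), Ttll8 (0.99), Kif9 (0.99), Hydin (0.99) and Cfap91 (0.99), of which Cfap43, Hydin and Cfap91 are proteins of the sperm tail axoneme, Kif9 a kinesin and Ttll8 a tubulin-modifying enzyme. Of the other members Tdrd9 came 9th closest of 28310 genes, Tdrd1 146th, Mov10l1 280th, Ddx4 420th, Mael 1393rd and Piwil2 1400th, Tdrd6 3061st, and Tdrkh and Piwil4 19169th and 19202nd.

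Of 25 other genes of the pathway, 24 passed the filter, Dnmt3c being the exception. The 3 highest were Fxr1, an RNA-binding protein of spermatids, at 8305 normalised counts on average, the chaperone gene Hsp90aa1 at 5020 and Gtsf1, a small zinc finger partner of Piwi proteins, at 3899. Scaling to equal spermatid and sperm marker sums moved the median of all genes by -0.98 in WD and -0.72 in MD-WD against CD. The 24 genes are given here as normalised counts only, so whether their signs hold on that scale is not shown. In WD against CD 22 of the 24 had a positive log2 difference and 2 a negative one, with a median of 0.83 beside 0.025 over all genes. None passed the test, nor did any of all genes tested. At an unadjusted p under 0.05 stood Adad2, a testis gene of the adenosine deaminase domain family (log2 difference 3.08, adjusted p 0.221), Btbd18 (2.09), which controls transcription of pachytene piRNA precursors, Pld6 (1.08), the mitochondrial nuclease of piRNA biogenesis, Tdrd7 (0.64) of the chromatoid body, Hsp90aa1 (0.45) and, below CD, Wdr77 (-0.46), a partner of the methyltransferase Prmt5. Of all genes, 8.17% were above CD and 8.1% below at that p. Tdrd7 alone of the 24 separated the groups in that comparison, with 1799 ± 457 normalised counts in WD and 1125 ± 29.0 in CD males (SD, n = 5 each). Of all genes, 1.29% did so above CD and 2.56% below. Adad2 was sparse, with 54.8 ± 37.7 in WD and 8.85 ± 8.76 in CD males. In MD-WD against CD 21 were above and 3 below, with a median of 0.46 beside 0.11 over all genes. Adad2 (2.61), Btbd18 (1.93) and Wdr77 (-0.54) were at an unadjusted p under 0.05, where 5.97% of all genes were above CD and 4.39% below. Pld6 separated the groups with 73.8 ± 47.4 normalised counts in MD-WD and 34.2 ± 5.60 in CD males. Of all genes, 1.93% did so above CD and 1.89% below. In LPD and MD-LPD against CD the medians were -0.079 and -0.0051, beside -0.037 and -0.012 over all genes, with 11 and 12 of the 24 above. None was at an unadjusted p under 0.05, where 4.8% and 1.79% of all genes were above CD and 3.76% and 1.43% below. The list was put together with earlier results of these data known, and it is described by its counts only.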

How the data were processed

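RNA of 25 sperm libraries, 1 per male, was analysed. The authors trimmed reads with Trim Galore 0.6.7, aligned them with HISAT2 2.2.1 to GRCm39, assembled counts with StringTie 2.2.1 and scaled them with DESeq2. The deposited signal is a count divided by the library's size factor, and dividing by its step gave whole reads, within 0.01, for 100% of values, so the recovered counts could be used. Use of strand and the annotation release in counting are not given in the sources used here, and a library's depth (32455480 to 54108158 reads) sets its precision, to counting error only. Members were found by symbol in GENCODE vM39, on the same assembly. limma 3.58.1 (R 4.3.3) was fitted to log2 of the deposited normalised count plus 1, with trend and robust empirical Bayes, in 1 model of the 5 diets over the 28311 genes whose mean was 5 or more, with p adjusted by the method of Benjamini and Hochberg at 0.05. Alternatives were pseudocounts, filters, TMM and equal totals, only the 2 groups compared, edgeR 4.0.16 and DESeq2 1.42.0 on the counts, a block by male number, empirical Bayes that is not robust, label choices, and leaving out each library. Equal spermatid marker sums and leaving out the 3 libraries with reads in fewer than 30000 genes were added after the data were seen. The scripts were tested on simulated data, in which limma called 37 of 50 genes changed 4-fold, with 2 false calls. The differences of the members from CD were smaller than 4-fold. The genes named are the 10 members, the other pathway genes with an unadjusted p under 0.05 or the 3 highest means, and the 5 most like Piwil1. The members and lists were chosen with earlier results of these data known. No 2 of 300 pairs of libraries were duplicates. Tables and figures used Python 3.11.15, numpy 2.4.6, pandas 2.3.3 and matplotlib 3.10.9.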

Additional observations from a re-analysis of the deposited data

Results flagged for a closer look

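In 9 of the 50 sets of 5 males (10 members by 5 diets), 1 male stood farther from the others than Dixon's critical value of 0.71 for 5 samples allows. Chance marks about 1 in 20 independent, normally distributed sets. Here 7 of the 9 come from 3 libraries, and the rate for these counts was not tested. LPD male 10 had 1241 normalised counts of Piwil1, against 84.2 to 373 in the other LPD males, and 1807 of Ddx4, against 174 to 632. MD-LPD male 10 had 3176 of Tdrd6, against 677 to 1193 in the other MD-LPD males, 1640 of Ddx4, against 259 to 624, and 2445 of Mael, against 460 to 1022. MD-WD male 12 had 4378 of Tdrd6, against 1208 to 1532 in the other MD-WD males, and 3381 of Mael, against 840 to 1436. All 7 of these are high values in libraries with a spermatid and sperm marker sum of 965377 to 1434700 normalised counts. MD-WD male 10 had 97.9 of Piwil4, against 12 to 36.0 in the others of its group. CD male 10 had 224 of Tdrkh, against 543 to 656 in the other CD males, in the library with reads in the fewest genes, 26859.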

How the results depend on the processing

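No member passed an adjusted p of 0.05 under any of the 15 alternatives or any omission of 1 library, and the lowest adjusted p was 0.0595, for Piwil4 in MD-WD against CD (-1.91) without the 3 libraries of fewest genes. Of all genes, no setting but DESeq2 called more than 1 in a comparison, and DESeq2 called 0.0253% to 0.259%. Sign changes are given singly for the 10 members in WD and MD-WD against CD and for Piwil4 and Tdrkh in the other comparisons. Equal spermatid and sperm marker sums turned the sign, in MD-WD against CD, of Ddx4 (-0.086), Mael (-0.060), Mov10l1 (-0.0083), Piwil1 (-0.028), Piwil2 (-0.21), Tdrd1 (-0.085) and Tdrd6 (-0.053), in WD against CD of Piwil1 (-0.069), Piwil2 (-0.11), Tdrd1 (-0.031) and Tdrd9 (-0.019), of Piwil4 in MD-LPD against CD (0.055) and of Tdrkh in MD-WD against WD (0.22). The median of the members in WD against CD was -0.025 there, and -0.073 in MD-WD against CD. TMM turned Piwil4 in MD-LPD against CD (0.047), as did leaving out the 3 libraries of conflicting labels (0.018). Grouping those by the second field turned MD-LPD against LPD for Piwil4 (-0.0011) and Tdrkh (-0.021). Equal totals turned Tdrkh in MD-WD against WD (0.19). Of the 32 remaining differences (8 members in 4 comparisons), 24 changed sign under at least 1 alternative, in 73 of 480 values, and none of the 24 was larger than 0.34 in size as reported. Equal totals moved the median of all genes by -0.25, -0.20, -0.51 and -0.28 in LPD, MD-LPD, WD and MD-WD against CD. The male numbers were not taken to pair the samples. Over 21 same-number pairs r ran from -0.33 to 0.57, and pairs of unlike number were not compared. Whether the numbers pair the samples was not tested. With the replicate block, 1 member was above CD at an unadjusted p under 0.05 in WD against CD, beside 4.3% of all genes, and Piwil4 was 0.16 in MD-LPD against CD and 0.064 in WD against CD, and Tdrkh 0.097 in MD-WD against WD. That count was 3 as reported (8.17% of all genes), 6 with edgeR (13.9%), DESeq2 (7.7%) or only the 2 groups (10.9%), 0 with equal marker sums (0.459%) or the second label field (5.23%), and 1 to 8 when 1 library was left out (3.73% to 15.8%). Shares with DESeq2 are of the 47500 genes it tested without the filter on low values. Below CD or WD, the counts under other settings were 1 with DESeq2 (3.91% of all genes), edgeR (3.51%) or a pseudocount of 5 (4.82%), and 2 without the 3 libraries of fewest genes (13.7%), in MD-WD against CD, and 1 without those libraries in WD against CD (14.3%) and in MD-WD against WD (1.74%). Without CD male 10 the count below was 2 in LPD against CD (4.17%) and in MD-WD against CD (10.1%). It was 1 in MD-LPD against CD (2.18%) and in WD against CD (10.1%). Without MD-WD male 10 it was 1 in MD-WD against CD (5.32%) and in MD-WD against WD (0.897%). In MD-WD against WD it was also 1 without MD-WD male 12 (1.81%) or WD male 14 (0.921%). Every other omission of 1 library gave 0. Leaving out 1 library spread Piwil4 over -1.07 to 0.0030 in LPD against CD, -0.72 to 0.24 in MD-LPD against CD, -0.044 to 0.53 in MD-LPD against LPD and -0.90 to 0.054 in WD against CD, and Tdrkh over -0.11 to 0.29 in MD-LPD against LPD and -0.19 to 0.21 in MD-WD against WD. The cause of these changes was not tested.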
